A study of Mus musculus with 8 samples.

Results

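The transcripts of the normal 10-day-old mouse lens were ranked by their array signal. The ranking used the 4 wild-type (WT) arrays of a series of 8: 2 arrays from 129SvJae and 2 from C57BL/6J mice. The other 4 arrays came from α3Cx46 knockout (KO) lenses, which lack the gap junction subunit encoded by Gja3, and did not enter the ranking. The study set the strains and the genotypes side by side to look for transcripts that differ before a cataract is visible. All lenses were untreated, came from mice of both sexes and were pooled, with 20 to 30 lenses behind each group's RNA. A pool averages animals, so the spread between the 2 arrays of a strain holds no estimate of the variation between single mice. The members of the ranking were all 12422 probe sets of the Affymetrix MG-U74Av2 chip other than its 66 controls, of 12488 in all, ordered by the mean MAS5 signal of the 4 arrays with rank 1 as the brightest. A probe set is a group of short probes read together as 1 signal, for 1 transcript or, in some sets, for several similar ones. MAS5 signal is a linear brightness in arbitrary units. Probe sets bind with different strength, so the ranking orders signals and not copies of RNA. No contrast was tested.

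The lens is a ball of 2 cell kinds inside a collagenous capsule. An epithelium covers its front, and epithelial cells at the equator leave the cell cycle and elongate into fiber cells. Fibers fill with crystallins, the proteins that give the lens its refractive power, build a cytoskeleton of beaded filaments, tie their membranes together with aquaporin 0 and connexins, and later lose nuclei and other organelles. The α-crystallins are small heat shock proteins that keep other proteins soluble, and the β- and γ-crystallins are structural proteins of a separate family. Fibers are also the bulk of the tissue. In RNA of whole lenses, fewer cells of a type and less RNA per cell cannot be told apart.

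Signal was concentrated in few probe sets. The 154 brightest probe sets (1.24%) had a mean of 5000 or more, and they held 39.4% of the summed signal. A further 694 probe sets (5.59%) lay between 1000 and 5000 and held 25.2% of it. The moderate range from 250 to 1000 held 2524 probe sets (20.3%) and 21.7% of the signal, and the range from 50 to 250 held 5372 probe sets (43.2%) and 11.7%. The remaining 3678 probe sets (29.6%) had a mean under 50, the level taken as near background, and held 1.88% of the signal. The 10 brightest probe sets alone held 9.40% of the signal, with 10.9% and 8.17% on the 129SvJae arrays and 11.2% and 7.19% on the C57BL/6J arrays. The 100 brightest held 33.5%, between 31.1% and 35.7% by array.

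**Figure D1:**
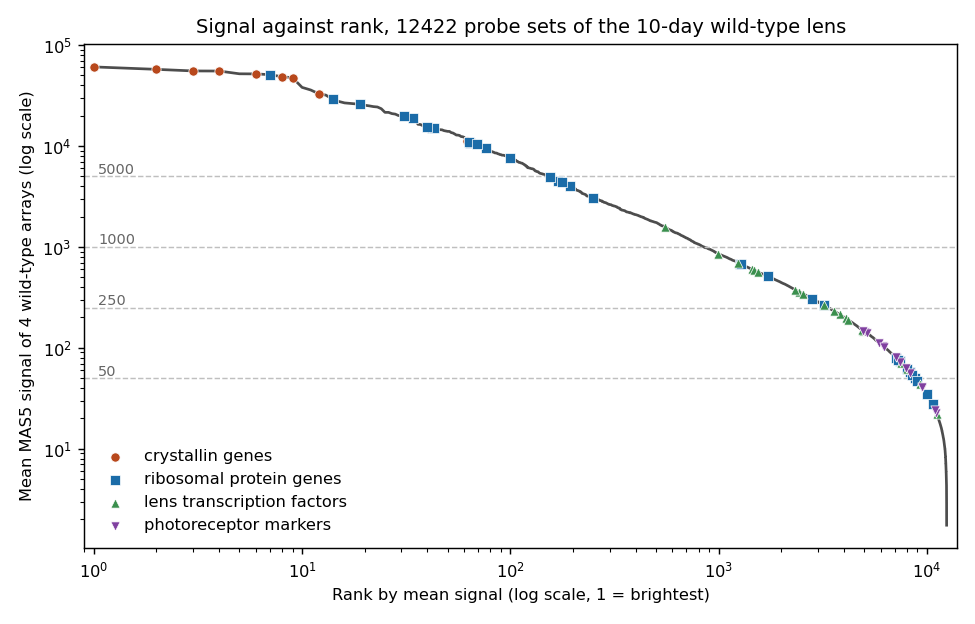
Mean MAS5 signal of the 4 WT arrays (vertical, log scale) against rank (horizontal, log scale) for 12422 probe sets. The grey curve is the ranking, dashed lines mark signals of 50, 250, 1000 and 5000, and symbols mark the brightest probe set of each gene of 4 lists. The crystallins sit at the top left, ribosomal proteins run from rank 7 to below a signal of 50, lens transcription factors start at rank 550 and photoreceptor markers lie under 250.

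The replicates were not alike at the top. Replicate 1 lay above replicate 2 for all 10 of the 10 brightest probe sets in both strains, by 1.12 to 1.53 times in 129SvJae (median 1.41) and by 1.31 to 2.05 times in C57BL/6J (median 1.68). Both replicate 1 arrays were scanned on 1 day, and the replicate 2 arrays on 2 other days. The ratio of the 3′ to the 5′ probe sets of the β-actin control was 3.10 and 1.78 on the 129SvJae arrays and 2.02 and 1.45 on the C57BL/6J arrays, and the run record of C57BL/6J replicate 1 held a fluidics communication error. The part of these in the replicate difference was not tested. Of their 100 brightest probe sets, replicates 1 and 2 had 84 in common for 129SvJae and 91 for C57BL/6J. Without C57BL/6J replicate 1, 97 of the 100 brightest probe sets of the 4-array mean stayed in the top 100, in a mean that holds the same other 3 arrays.

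Crystallins led the ranking. All 9 crystallin genes that have a probe set of their own on the chip were in the top 100, 8 of the 10 brightest probe sets were crystallins, and crystallins held 8.82% of the summed signal, with 10.2% and 7.59% on the 129SvJae arrays and 10.5% and 6.89% on the C57BL/6J arrays. The bases just before the starts are shown because 6 of 8 crystallin promoters held a TATA element there, TATAAA or TATATA. The search was widened to TATATA after these sequences were seen. RefSeq start sites on GRCm38.p6 were used, and each stretch is the 50 bases before the start on the gene's strand, 5′ to 3′, with TATAAA or TATATA in capitals.

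Cryaa, chr17:31677881-31677930, plus strand: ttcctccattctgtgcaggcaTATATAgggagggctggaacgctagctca
Cryba1, chr11:77725294-77725343, minus strand: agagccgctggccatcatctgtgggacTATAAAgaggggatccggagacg
Crygb, chr1:65082291-65082340, minus strand: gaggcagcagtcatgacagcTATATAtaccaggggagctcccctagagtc
Crygc, chr1:65073533-65073582, minus strand: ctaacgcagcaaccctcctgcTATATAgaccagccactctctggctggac
Crygd, chr1:65063441-65063490, minus strand: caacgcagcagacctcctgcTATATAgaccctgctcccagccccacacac
Cryge, chr1:65051164-65051213, minus strand: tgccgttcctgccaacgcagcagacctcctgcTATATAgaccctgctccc
Crygs, chr16:22811411-22811460, minus strand: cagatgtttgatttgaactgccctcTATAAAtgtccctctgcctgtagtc

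The search asked for TATAAA or TATATA in bases 45 to 16 before the start on the gene's strand, where the letters of the motifs can overlap each other. Cryaa, Cryba1, Crygb, Crygc, Crygd and Crygs held one (75.0% of 8 crystallin promoters found in the table), against 4.11% of the promoters of 6576 ranked genes and 3.26% of 27025 promoters in the table. On both strands these shares were 75.0%, 4.56% and 3.83%. Cryge held TATATA nearer to its annotated start, 18 bases before it and outside the window, and its stretch shares a run of 38 bases with that of Crygd. Crybb2 held neither motif in the 50 bases. TATATA was added to the search after the sequences were seen, so the share of 75.0% comes from a search fitted to them. TATAAA alone stood in the window of 2 of the 8 crystallin promoters and of 207 of the 6576 ranked genes. Among the 69 other top 100 genes with a promoter in the table, 3 (4.35%) held the element. Small lists of other tissues were mixed, so the element was not particular to crystallins. It stood in 3 of 9 skeletal muscle, 2 of 5 pancreas, 2 of 7 testis and 2 of 10 liver promoters. Of the photoreceptor promoters 1 of 10 held it, and of the heart promoters 0 of 6. The promoters of the crystallins also held few CG steps, with a median of 4 in the 250 bases before the start against 14 over all ranked genes and 18 for ribosomal protein genes. Lists of other tissues had as few, with medians of 2.50 for photoreceptors, 2.50 for liver and 3.50 for heart. The letters TGCTGAC, the core of the site that large Maf factors bind, stood in the 250 bases before 2 of 8 crystallin genes (25%) on either strand, against 3.38% of ranked genes, 20.0% of 10 photoreceptor genes and 28.6% of 7 testis genes. These matches describe letters and are not tested sites.

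The brightest probe set was a γ-crystallin. Crygd read 73509.5 and 51570.2 on the 129SvJae arrays and 79433 and 38755 on the C57BL/6J arrays, a mean of 60817 ± 18973 (SD, n = 4 arrays of both strains, as for every mean below). Replicate 1 was the higher in both strains, and the strains overlapped. Cryge held ranks 4 and 5 with 2 probe sets, of which the brighter read 68712 and 45789 on the 129SvJae arrays and 67436 and 39416 on the C57BL/6J arrays. Both Cryge probe sets and that of Crygd carry the suffix the maker gives to sets shared by a family of similar sequences, so these signals cannot be divided between the copies. Crygs, which is kept on in later fibers, read 64638 and 47885 on the 129SvJae arrays and 65656 and 43639 on the C57BL/6J arrays at rank 3. Crygc read 61167 and 44798 on the 129SvJae arrays and 63264 and 38086 on the C57BL/6J arrays at rank 6, and Crygb 38412 and 28137 on the 129SvJae arrays and 37992 and 27518 on the C57BL/6J arrays at rank 12. On each array the Crygb signal was below those of the other 4 γ-crystallins.

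Among the α-crystallins, Cryaa read 68032 and 48036 on the 129SvJae arrays and 72854 and 41106 on the C57BL/6J arrays, a mean of 57507 ± 15329.8 at rank 2. Cryab, which unlike Cryaa is also used in muscle and other tissues, read 8828 and 11761 on the 129SvJae arrays and 11305 and 12942 on the C57BL/6J arrays at rank 62. This reading came from a family probe set, so it cannot be assigned to Cryab alone. Cryab went the other way from the other crystallins between replicates, with replicate 2 the higher in both strains. Of the β-crystallins, Crybb2 read 55141 and 44641 on the 129SvJae arrays and 54987 and 39687 on the C57BL/6J arrays at rank 8 and Cryba1 59059 and 39679 on the 129SvJae arrays and 58522 and 32819.7 on the C57BL/6J arrays at rank 9. The means of ranks 1 to 9 ran from 47519.9 to 60817 with SDs of 7718 to 18973, which hold the difference between replicates that these probe sets share. Crybb1, Crybb3, Cryba2, Cryba4, Cryga, Crygf and Crygn were not analysed here, since none had a probe set that names it alone.

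Not every crystallin probe set was bright. Of 16 crystallin probe sets, 11 had a mean of at least 5000 and 1 was under 50. The second Cryab probe set, which carries no family suffix, read 19 and 56.6 on the 129SvJae arrays and 40.7 and 14.2 on the C57BL/6J arrays, near background on 3 of 4 arrays. A second Crygd probe set read 472 and 441 on the 129SvJae arrays and 568 and 666 on the C57BL/6J arrays, and a second Crybb2 probe set 119.8 and 173 on the 129SvJae arrays and 99.1 and 175 on the C57BL/6J arrays. The Cryge probe set 96965_at divided the strains. It read 247 and 541 on the 129SvJae arrays and 4397 and 5339 on the C57BL/6J arrays, which is rank 2224 in 129SvJae and rank 151 in C57BL/6J. The strains did not overlap there, while those of the 2 brightest Cryge probe sets did. Another, 162018_r_at, leaned the other way, with 1048 and 996 on the 129SvJae arrays and 596 and 652 on the C57BL/6J arrays.

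**Figure D2:**
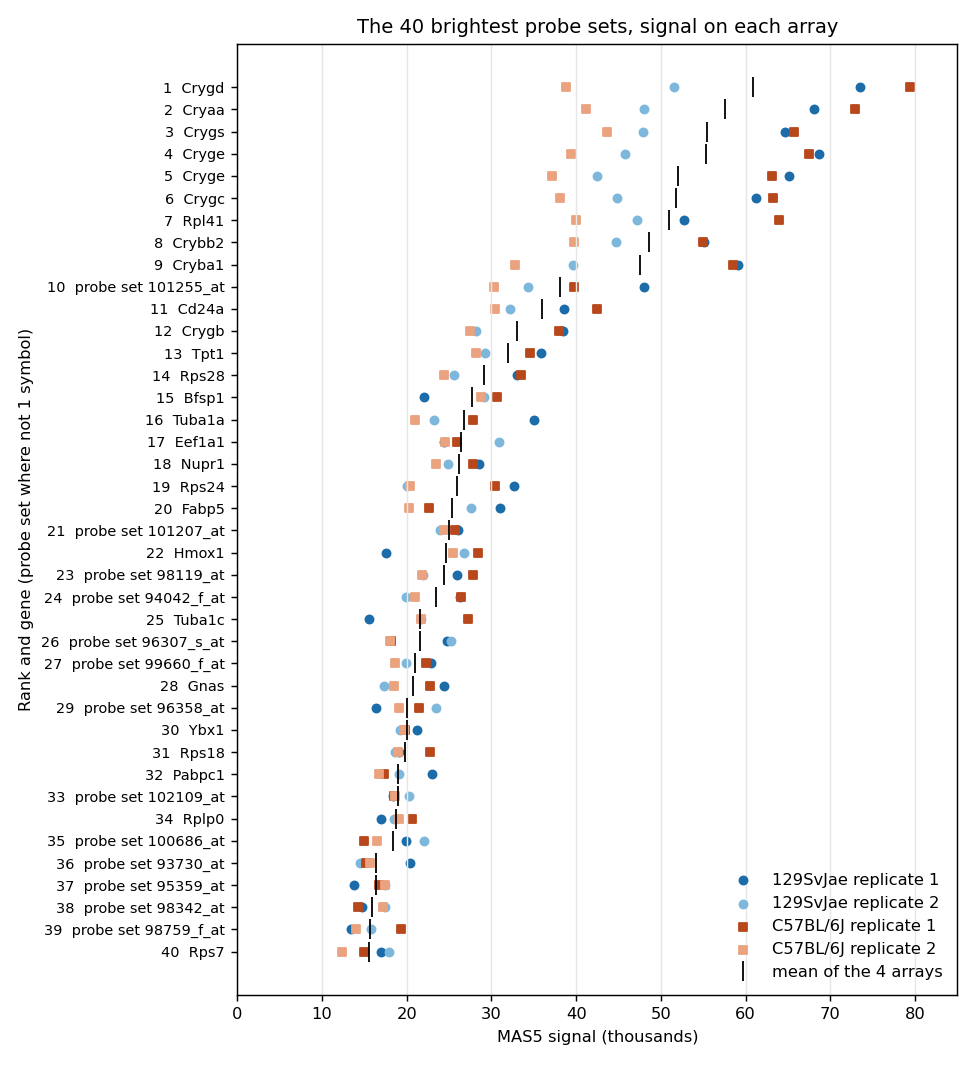
MAS5 signal divided by 1000 (horizontal) on each of the 4 WT arrays for the 40 brightest probe sets (vertical, by rank). Circles are 129SvJae, squares are C57BL/6J, dark symbols are replicate 1, light symbols are replicate 2 and black bars are means of the 4 arrays. Replicate 1 lies right of replicate 2 for the first 10 rows in both strains, and the order of the strains is mixed below.

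Many genes of the fiber cytoskeleton were bright too. Of 27 cytoskeleton genes measured, 16 had a mean of at least 1000 and 5 of at least 5000, with a median rank of 565 against 5253 over all 8251 genes that 1 probe set or more names alone. Bfsp1, filensin of the beaded filament, read 22030.2 and 29142 on the 129SvJae arrays and 30699.8 and 28769 on the C57BL/6J arrays at rank 15. It was the brightest of the fiber genes that are no crystallins, and 129SvJae replicate 1 was its lowest array. The tubulins Tuba1a and Tuba1c had ranks 16 and 25, with means of 26744 ± 6176 and 21556 ± 4760.1. The tubulin sets carry family or partial-match suffixes, and Tuba1a and Tuba1c are near-identical in sequence. γ-Actin, Actg1, read 14025 and 15001 on the 129SvJae arrays and 12430.0 and 14898 on the C57BL/6J arrays at rank 49, while β-actin, Actb, read 766 and 2170.4 on the 129SvJae arrays and 3076 and 2059 on the C57BL/6J arrays at rank 419.

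Spectrins and tropomyosins line the fiber membrane. The αII-spectrin gene Sptan1 was among the steadiest, with 4403 and 4536 on the 129SvJae arrays and 4614 and 4474 on the C57BL/6J arrays at rank 172. The βII-spectrin gene Sptbn1 averaged 2928 ± 205 at rank 266. Of the tropomyosins, Tpm4 averaged 1572 at rank 553, with the strains far apart as given below. Tpm3 averaged 634.5 ± 115 at rank 1364 and Tpm1 348.9 ± 49.5 at rank 2507. Vimentin, Vim, the intermediate filament of lens epithelium and young fibers, read 112 and 60.5 on the 129SvJae arrays and 171 and 111 on the C57BL/6J arrays at rank 5860 by its 1 probe set. Myl6, a myosin light chain used in most cells, was the 1 cytoskeleton gene under 50, with 13.6 and 16.1 on the 129SvJae arrays and 10.5 and 18.8 on the C57BL/6J arrays. Bfsp2, the partner of Bfsp1 in the beaded filament, was not analysed here.

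Of 16 fiber membrane genes, 9 were at 1000 or more and 1 was under 50, with a median rank of 790. Mip, aquaporin 0, the main water channel and membrane protein of fibers, read 12019 and 14703 on the 129SvJae arrays and 14700.4 and 16494 on the C57BL/6J arrays at rank 46. The adhesion molecule Cadm1 read 18573 and 11258 on the 129SvJae arrays and 13210.2 and 10786 on the C57BL/6J arrays at rank 53, with 129SvJae replicate 1 high, from a family probe set. β-Catenin, Ctnnb1, averaged 4861 ± 561 at rank 159. Gja3, which encodes α3Cx46, read 1101 and 3383 on the 129SvJae arrays and 1969 and 3276 on the C57BL/6J arrays at rank 331. In both strains the second replicate was the higher. Gja1, connexin 43 of the epithelium, averaged 1472 ± 462 at rank 583. Efna5, an ephrin ligand that signals between lens cells, read 8.40 and 40.4 on the 129SvJae arrays and 9.20 and 65.9 on the C57BL/6J arrays and was under 50 in the mean. Lim2 and Aqp5 were not analysed here.

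Translation machinery was the largest listed group in the top 100. In the top 100, 14 probe sets named 1 ribosomal protein alone, from 13 genes, and 19 more named several genes with at least 1 ribosomal protein among them, which makes 33. All 86 ribosomal probe sets of either kind held 10.7% of the summed signal. Rpl41, a very short subunit of the large ribosomal particle, read 52732 and 47148 on the 129SvJae arrays and 63891 and 40019 on the C57BL/6J arrays at rank 7. It was the brightest probe set outside the crystallins. Rps28 averaged 29118 ± 4773 at rank 14, Rps24 25896 ± 6632 at rank 19 and Rps18 19841 ± 1951 at rank 31. These readings of Rpl41 and Rps28 came from family probe sets, so they cannot be assigned to 1 gene alone. An Rps28 probe set without the suffix averaged 13966.6 at rank 50. The stretches before Rpl41, Rps28 and Tpt1, which was listed with the translation factors, are shown as a contrast to the crystallins. CG steps are in capitals, and none of the 3 held the TATA letters in the window.

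Rpl41, chr10:128549169-128549218, minus strand: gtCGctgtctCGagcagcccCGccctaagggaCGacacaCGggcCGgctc
Tpt1, chr14:75845206-75845255, plus strand: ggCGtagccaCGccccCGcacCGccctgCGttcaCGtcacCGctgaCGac
Rps28, chr17:33824563-33824612, minus strand: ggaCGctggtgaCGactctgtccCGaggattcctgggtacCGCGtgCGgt

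These hold 6, 8 and 6 CG steps in 50 bases, against 0 to 3 in the 7 crystallin stretches above. Eef1a1 and Rps24, of the translation factor and ribosomal lists, held 5 and 3. Among other bright genes, Gja3 held 9, Tuba1a 4 and Tuba1c 2, while Bfsp1, Mip and Nupr1 held 0. Of 27 ribosomal protein genes with a promoter in the table, 1 (3.70%) held the TATA element.

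The ribosomal list was split, although most of its products are needed in near-equal numbers. The list also holds Rpl39l, Rps27l and Rps4l, which are relatives of core subunit genes. Of 34 ribosomal protein genes matched by symbol, 13 were at 5000 or more, 5 between 1000 and 5000, and 10 under 250, of which 3 were under 50. Their median rank was 221. The dimmest were Rps15 (46.6), Rpl32 (34.6) and Rps20, which read 50.4 and 17.1 on the 129SvJae arrays and 32.9 and 9.60 on the C57BL/6J arrays. Rpl35a read 43.7 and 39.8 on the 129SvJae arrays and 33.1 and 83.4 on the C57BL/6J arrays and lay at the line of 50 itself. Ribosomal proteins have many processed copies in the genome, and 12 of the 86 ribosomal probe sets were under 50 with a median rank of 603 over all of them.

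Of 50 translation factor genes matched by symbol, which include some of their kinases and binding proteins, 18 were at 1000 or more and 2 under 50, with a median rank of 2711.5. Tpt1, a growth-related tubulin-binding protein grouped with them, read 35890.0 and 29290.1 on the 129SvJae arrays and 34512 and 28145 on the C57BL/6J arrays at rank 13. Eef1a1, the elongation factor that brings transfer RNA to the ribosome, read 24341 and 30893 on the 129SvJae arrays and 25924 and 24499.9 on the C57BL/6J arrays at rank 17. Pabpc1, which binds poly(A) tails, averaged 19016 ± 2793 at rank 32, and the initiation factor Eif5b averaged 5164 ± 1271 at rank 147. Ybx1, a binding protein that packages messenger RNA, averaged 19973 ± 889.6 at rank 30.

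Several bright genes belonged to none of these groups. Cd24a, a small surface glycoprotein of developing epithelia, read 38593 and 32240.1 on the 129SvJae arrays and 42429 and 30389 on the C57BL/6J arrays at rank 11. Nupr1, a stress-induced chromatin protein, averaged 26172 ± 2452 at rank 18. Fabp5, a fatty acid carrier, read 31015 and 27560.3 on the 129SvJae arrays and 22639.7 and 20234 on the C57BL/6J arrays at rank 20, with both 129SvJae arrays above both C57BL/6J arrays. Gnas, the stimulatory G protein α subunit, averaged 20718 ± 3345 at rank 28. Ndrg1, a stress- and differentiation-linked protein, had 2 probe sets close together at ranks 51 and 67. Caprin2, an RNA-binding protein of fibers, read 9565 and 7055 on the 129SvJae arrays and 14974 and 10035 on the C57BL/6J arrays at rank 71, and Aldh1a1, a retinaldehyde dehydrogenase, 9232 and 8872 on the 129SvJae arrays and 12150.0 and 11990.3 on the C57BL/6J arrays at rank 70. Of the 40 brightest probe sets, 11 named several genes and 2 named none, so these are known only by probe set, such as 101255_at at rank 10 with 48058 and 34346 on the 129SvJae arrays and 39768 and 30304 on the C57BL/6J arrays.

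Energy genes were high as a group. Of 73 genes of oxidative phosphorylation matched by symbol, 38 were at 1000 or more, 11 at 5000 or more and 3 under 50, with a median rank of 531. Cox6a1, a subunit of cytochrome c oxidase, averaged 12194 ± 964 at rank 60, Atp5l of the ATP synthase 10827 ± 1259.6 at rank 65, Ndufa7 of complex I 8387 ± 1251 at rank 87 and Uqcrb of complex III 7534 ± 1778 at rank 102. Of 17 glycolytic genes, 10 were at 1000 or more and 2 under 50, with a median rank of 362. Pgam2, a phosphoglycerate mutase known from muscle, was the brightest and read 9726 and 11635 on the 129SvJae arrays and 6239 and 6553 on the C57BL/6J arrays at rank 85, with both 129SvJae arrays above both C57BL/6J arrays. Aldoc, an aldolase, averaged 6602 ± 2054 at rank 116. Pgk1, phosphoglycerate kinase, read 5393 and 5602 on the 129SvJae arrays and 2043 and 2584 on the C57BL/6J arrays at rank 199, again without overlap of the strains. Aldoa averaged 2767 ± 505 at rank 281.

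Chaperones stood lower than the α-crystallins that share their function. Of 34 chaperone genes, 17 were at 1000 or more and 3 under 50, with a median rank of 842.5 and none in the top 100. Hsp90aa1 averaged 7315 ± 1001 at rank 104, the chaperonin subunit Cct5 5311 ± 824 at rank 142 and Hspa8, the constitutive Hsp70, 4353 ± 466 at rank 179. Hspb2, a small heat shock protein whose gene neighbours Cryab, read 6987 and 4507 on the 129SvJae arrays and 5132 and 4415 on the C57BL/6J arrays at rank 144. Hspb1 read 102 and 13.2 on the 129SvJae arrays and 15.2 and 11.5 on the C57BL/6J arrays, with 1 array above 50. The paper treats Hspb1 as expressed in the lens but missing from the chip, and by real-time PCR found it higher in C57BL/6J. The dim reading is thus a statement on the probe set. The heat-inducible Hspa1a and Hspa1b averaged 64.3 and 32.1, and Calr, an abundant chaperone of the endoplasmic reticulum in most cells, averaged 9.57. Of 66 proteasome and ubiquitin genes, 25 were at 1000 or more and 4 under 50, with a median rank of 1422, led by the proteasome subunit Psmb4 (5648 ± 560.0, rank 133) and the ubiquitin hydrolase Uchl1 (3498 ± 829.5, rank 218).

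Of 35 antioxidant and metal-handling genes, 9 were at 1000 or more and 2 under 50, with a median rank of 2478, and 4 were in the top 100. Hmox1, the heme-degrading enzyme induced by oxidative stress in many cells, read 17600.3 and 26787 on the 129SvJae arrays and 28423 and 25504 on the C57BL/6J arrays at rank 22. Its lowest array was 129SvJae replicate 1. The glutathione transferases Gstm5, Gstp1 and Gstm1 had ranks 48, 95 and 97, with means of 14208 ± 3024, 7966 ± 1814 and 7876 ± 903. Gstm5 and Gstm1 were read by family probe sets of a gene cluster. Gss and Gclc, which make glutathione, averaged 2942 ± 216 and 811 ± 236. Catalase, Cat, averaged 434 ± 79 at rank 2042, and the metallothionein Mt1 59.2 ± 45 at rank 8175.

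Capsule genes were dimmer than fiber genes, apart from type IV collagen. Of 21 capsule and matrix genes, 4 were at 1000 or more and 3 under 50, with a median rank of 2737. The chains Col4a1 and Col4a2 of type IV collagen stood far above the rest: Col4a2 read 8927 and 8399.9 on the 129SvJae arrays and 10021 and 11894 on the C57BL/6J arrays at rank 75 and Col4a1 10719.5 and 5705 on the 129SvJae arrays and 9235 and 6473 on the C57BL/6J arrays at rank 94. Sparc, a collagen-binding matrix protein, averaged 2347 ± 819.8 at rank 339. Col6a3 of type VI collagen read 372 and 458 on the 129SvJae arrays and 2166 and 2829.7 on the C57BL/6J arrays at rank 593. Both of its C57BL/6J arrays were above both 129SvJae arrays, and its rank was 2124 in 129SvJae and 321 in C57BL/6J. The collagen chain Col4a3, the laminin chain Lamb2 and the linker nidogen Nid2 were under 50, with means of 29.3, 18.9 and 5.35.

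Of 15 genes known from lens epithelium, 9 were at 1000 or more and 1 under 50, with a median rank of 752. Dkk3, a secreted protein of the Dickkopf family, read 4805 and 6598 on the 129SvJae arrays and 6564 and 8670.4 on the C57BL/6J arrays at rank 115. Itgb1, the β1 integrin that ties cells to the capsule, averaged 5157 ± 1664 at rank 148 from a family probe set, and clusterin, Clu, a secreted chaperone, 4242 ± 339 at rank 186. Apoe read 36.6 and 19.4 on the 129SvJae arrays and 28.2 and 37 on the C57BL/6J arrays, under 50 on all 4 arrays. Foxe3, the transcription factor of lens epithelium, was not analysed here.

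Transcription factors of the lens were spread over the moderate range and the one below it. Of 21, 1 was at 1000 or more, 10 between 250 and 1000, 8 between 50 and 250 and 2 under 50, with a median rank of 3187. Hsf4, the heat shock factor needed in fibers, read 997 and 1527 on the 129SvJae arrays and 1668 and 2146 on the C57BL/6J arrays at rank 550 as the brightest. Sox2 averaged 861 ± 145 at rank 989, Prox1, which drives fiber elongation, 859 ± 191 at rank 994 and Pax6, the regulator of eye development, 699.8 ± 66.4 at rank 1236. Maf, the main activator of crystallin genes, read 178 and 742 on the 129SvJae arrays and 727 and 764 on the C57BL/6J arrays at rank 1441, with 129SvJae replicate 1 low. Mafk and Meis1 were under 50, with means of 43.8 and 22. Sox1, which acts on γ-crystallin genes, read 54.6 and 225 on the 129SvJae arrays and 168 and 410.0 on the C57BL/6J arrays, and its 4 arrays spread from near background to the moderate range.

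Genes linked to organelle loss and protein breakdown in fibers were spread wide. Of 11, 5 were at 1000 or more and 1 under 50, with a median rank of 899. Cathepsin L, Ctsl, read 4393 and 5559 on the 129SvJae arrays and 2329.5 and 2368 on the C57BL/6J arrays at rank 208, with both 129SvJae arrays above both C57BL/6J arrays. Capn3, the gene of the lens calpain, averaged 3061 ± 822 at rank 251, cathepsin D, Ctsd, 2871 ± 709 at rank 272, and the lysosomal protein Lamp1 2249 ± 489 at rank 358. Casp6 was under 50 with a mean of 13. Dnase2b, the nuclease that removes fiber DNA, was not analysed here.

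Cell cycle genes lay near the middle of the ranking. Of 25, 2 were at 1000 or more (8.00%, against 8.08% of all 8251 genes), 9 at 250 or more (36.0%, against 32.93%) and 3 under 50 (against 22.25% of all genes), with a median rank of 4752 against 5253 over all genes. The brightest was Cdkn1c, the p57 inhibitor that holds fibers out of the cycle, which read 14100.4 and 5416 on the 129SvJae arrays and 8723 and 8319 on the C57BL/6J arrays at rank 79. Cdk4 averaged 1083 ± 251 at rank 785 and cyclin D1, Ccnd1, 552 ± 92.1 at rank 1578. The proliferation marker Mki67 averaged 79.5 ± 26.3 and Top2a 29.4 ± 16.4. Of 25 growth factor receptors, 2 were at 1000 or more and 7 under 50, with a median rank of 6326. Fgfr2, a receptor for the fiber-inducing FGFs, read 2169 and 1603 on the 129SvJae arrays and 956 and 1350.2 on the C57BL/6J arrays at rank 567, and Pdgfra of the epithelium averaged 1131 ± 204 at rank 752. Fgfr1 and Fgfr3 averaged 77.6 ± 35.7 and 178 ± 21. Of 15 immediate-early genes, 1 was at 1000 or more and 5 under 50, with a median rank of 6620. Jund averaged 2493 ± 445, while Fos and Myc averaged 42.9 and 22.5.

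**Figure D3:**
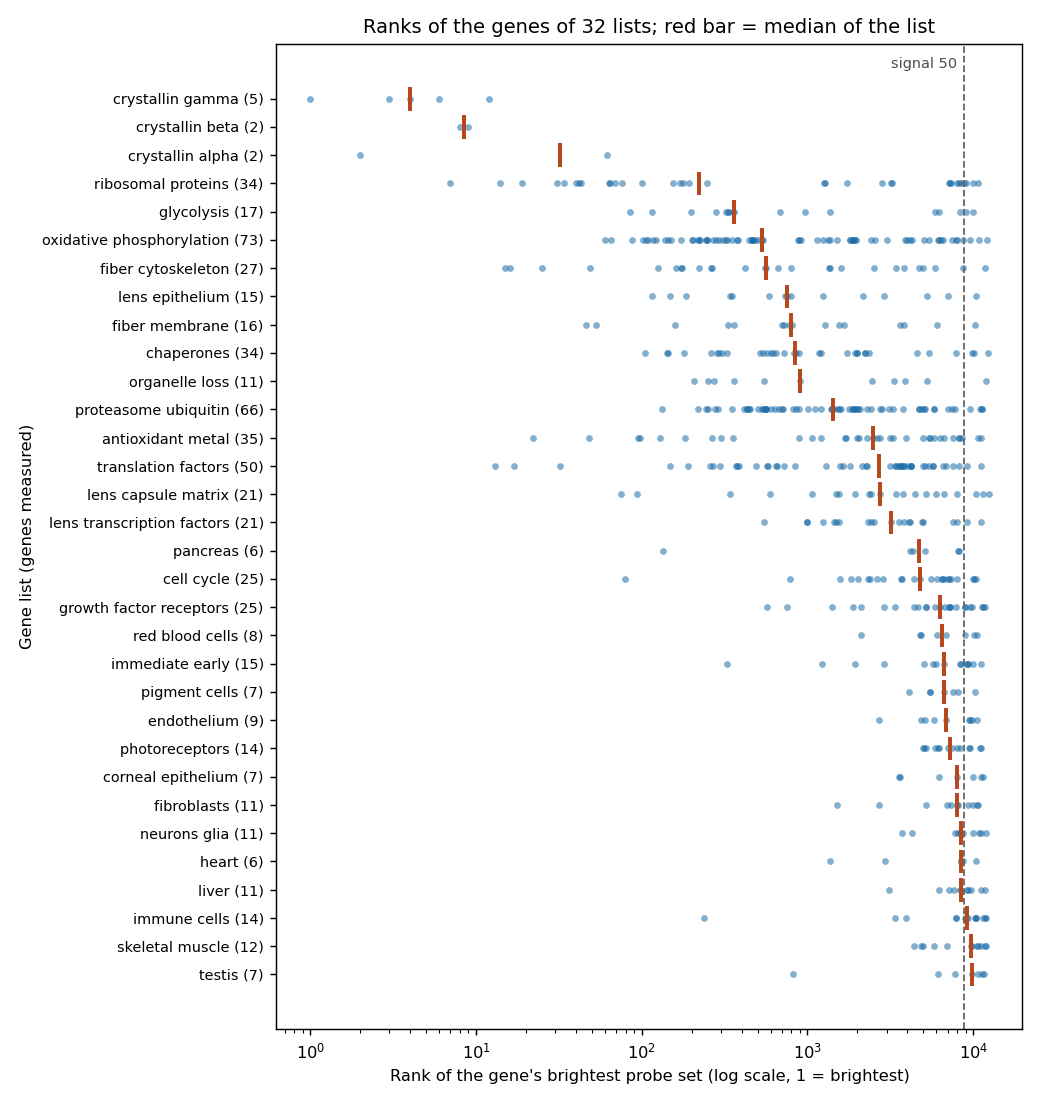
Rank of each gene's brightest probe set (horizontal, log scale) for the genes of 32 lists (vertical, number of genes measured in brackets). Dots are genes, red bars are list medians and the dashed line is the rank where the mean signal falls to 50. Median ranks run from 4 for the γ-crystallins to 9890 for testis genes.

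The lists of markers of cells around the lens had median ranks below that of all genes, and few of their members reached 250. Over all 8251 genes the median rank was 5253, with 22.25% of genes under 50 and 8.08% at 1000 or more. Of 14 photoreceptor genes, 4 were under 50 and none reached 250, with a median rank of 7264.5 and a summed signal of 827 to 1810 by array. Of these, Sag, arrestin of rods, read 476 and 42.1 on the 129SvJae arrays and 10 and 49.6 on the C57BL/6J arrays, so that 1 array of 4 gave most of its mean. The 7 pigment cell genes summed to 516 to 885 (median rank 6623, 1 under 50), the 7 genes of corneal epithelium to 509.8 to 850.1 (7955, 3 under 50) and the 11 genes of neurons and glia to 649 to 977 (8390, 4 under 50). The 9 endothelial genes summed to 870.2 to 1064 (median rank 6830, 4 under 50), the 8 red blood cell genes to 867 to 1336 (6450.5, 3 under 50) and the 11 fibroblast genes to 1392 to 1502 (7985, 4 under 50). By the same sum the 15 genes of lens epithelium gave 25329.8 to 28314. The α-globin gene Hba-a1 read 642 and 403 on the 129SvJae arrays and 162 and 475 on the C57BL/6J arrays. Col1a2, 1 of 2 fibroblast genes at 250 or more, averaged 582 ± 138, and its second probe set averaged 22.8 at rank 11094.

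Genes of unrelated organs were read on both sides of the median of all genes. The median ranks were 9748.5 for 12 skeletal muscle genes (7 under 50), 8483 for 11 liver genes (5 under 50), 8451 for 6 heart genes (1 under 50), 4724.5 for 6 pancreas genes (none under 50) and 9890 for 7 testis genes (4 under 50). Albumin, Alb, averaged 67.7 and the glucagon gene Gcg 189.9 in a tissue where neither is known to be used, so a signal in the range from 50 to 250 was also given by genes of other organs.

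Single markers broke this pattern. Cela1, an elastase first known from the pancreas, read 5156 and 7523 on the 129SvJae arrays and 4828 and 4813 on the C57BL/6J arrays at rank 134, while its relative Cela2a averaged 141 ± 81.5. Of 14 immune cell genes, 9 were under 50, with a median rank of 9143, including the common leukocyte antigen Ptprc (31.1), Lyz2 (15.2) and Aif1 (13.9). Yet C1qb, a complement subunit of macrophages, read 1963 and 2695 on the 129SvJae arrays and 1928 and 6093 on the C57BL/6J arrays at rank 239. Its second probe set read 17.8 and 8.40 on the 129SvJae arrays and 8.70 and 14.1 on the C57BL/6J arrays, and its partners C1qa and C1qc averaged 29.1 and 47.9. Tnp1, a sperm chromatin protein, read 1316 and 1062 on the 129SvJae arrays and 1060.4 and 742 on the C57BL/6J arrays at rank 814. The second Tnp1 probe set averaged 8.12 at rank 12277. The other 6 testis genes averaged from 17.6 to 104. The upper of these, Prm1, rested on 129SvJae replicate 1, at 387 against 4.70 to 14.5 on the other arrays.

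The line of 50 does not divide the probe sets cleanly. In all, 1865 probe sets (15%) were under 50 on all 4 arrays, 6170 (49.7%) on none and 4387 (35.3%) on 1 to 3 arrays. The last just above it were Ugt2b34, Rpl35a and Smg5 at a mean of 50, and the first just below were Col11a1, Itpr2 and Rgs9 at 49.95. Smg5 read 28.4 and 53.2 on the 129SvJae arrays and 37.2 and 81.2 on the C57BL/6J arrays, and Rgs9 read 109 and 29.7 on the 129SvJae arrays and 53.4 and 7.30 on the C57BL/6J arrays, so each had arrays on both sides of the line. In 129SvJae 3802 probe sets had a strain mean under 50, in C57BL/6J 3807 had one, and 2868 (23.1% of all) were under 50 in both. A further 934 were under 50 in 129SvJae alone and 939 in C57BL/6J alone. A mean near or under 50 says only that the probe set was dim. Ldhb, Fau and Rps14, which most cells use, averaged 46.1, 57.5 and 75.8.

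**Figure D4:**
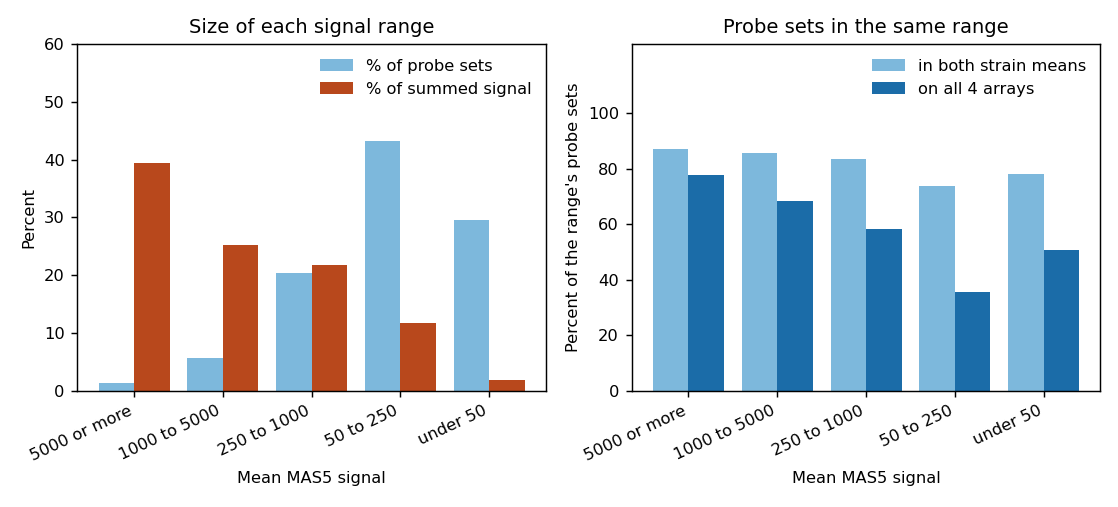
Left, the percent of 12422 probe sets (light blue) and of summed signal (red) in each range of mean MAS5 signal. Right, the percent of each range's probe sets that fell in the same range in both strain means (light blue) and on all 4 arrays (dark blue): 87.0% and 77.9% at 5000 or more, falling to 73.9% and 35.6% between 50 and 250, with 78.0% and 50.7% under 50.

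Between the strains, ranks moved by the fewest places at the top. The share of probe sets in common was similar at each depth. The mean ranks of the strains shared 9 of the top 10, 45 of the top 50, 91 of the top 100, 183 of the top 200 and 442 of the top 500. The 2 arrays of a strain shared 84 of the top 100 in 129SvJae and 91 in C57BL/6J, and single arrays of different strains shared 84 to 90. The overlap between strains was thus of the size of that within a strain. On all 4 arrays, 9 of the top 10 and 80 of the top 100 were the same. Across all probe sets, Spearman's rho between the strain means was 0.908, as a description over probe sets, which are not replicates, of arrays that share a chip design and a scaling. Within the top 500 it was 0.87. The median spread of a probe set's rank over the 4 arrays was 24.5 places at 5000 or more, 205 places from 1000 to 5000, 977.5 from 250 to 1000, 3163.5 from 50 to 250 and 2811.5 under 50. The median coefficient of variation of the signal rose from the brightest range down, from 15.9% through 18.8% and 21.7% to 44.8%, and was 60.5% under 50.

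Of the 9 probe sets in each strain's top 100 that were missing from the other's, Gas5 was the 1 that fell far outside it. Gas5, an untranslated RNA with small nucleolar RNAs in its introns, read 882 and 790.1 on the 129SvJae arrays and 19106 and 14026 on the C57BL/6J arrays, which is rank 1033 in 129SvJae and rank 37 in C57BL/6J. The strains did not overlap. Its rank of 83 in the 4-array mean describes neither strain. These readings are of the brightest of 3 Gas5 probe sets, and the dimmest averaged 52.5 at rank 8581. The other 17 probe sets in the top 100 of 1 strain only lay no lower than rank 162 in the other strain. Among them were Plk3, a stress-linked kinase, at rank 154 in 129SvJae and 66 in C57BL/6J, Pgam2 at 68 and 114, and Dkk3 at 138 and 96.

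In the top 500 of 1 strain and outside the top 1000 of the other were 7 probe sets, 3 higher in 129SvJae and 4 in C57BL/6J. Beside Gas5, the Cryge probe set 96965_at and Col6a3, these were Tpm4, Lgals1, F2r and Ppp1r15a. Tpm4, a tropomyosin, read 2554 and 2565 on the 129SvJae arrays and 584 and 585 on the C57BL/6J arrays and had ranks 311 and 1512. Its replicates were close to each other in both strains. Lgals1, galectin 1, read 1063 and 3639 in 129SvJae and 701 and 884.0 in C57BL/6J, so that its place in 129SvJae differed between replicates. F2r, the thrombin receptor, read 2151 and 1411 against 764 and 823. Ppp1r15a, a stress-induced phosphatase subunit, read 346 and 660.1 against 1091 and 2493.

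**Figure D5:**
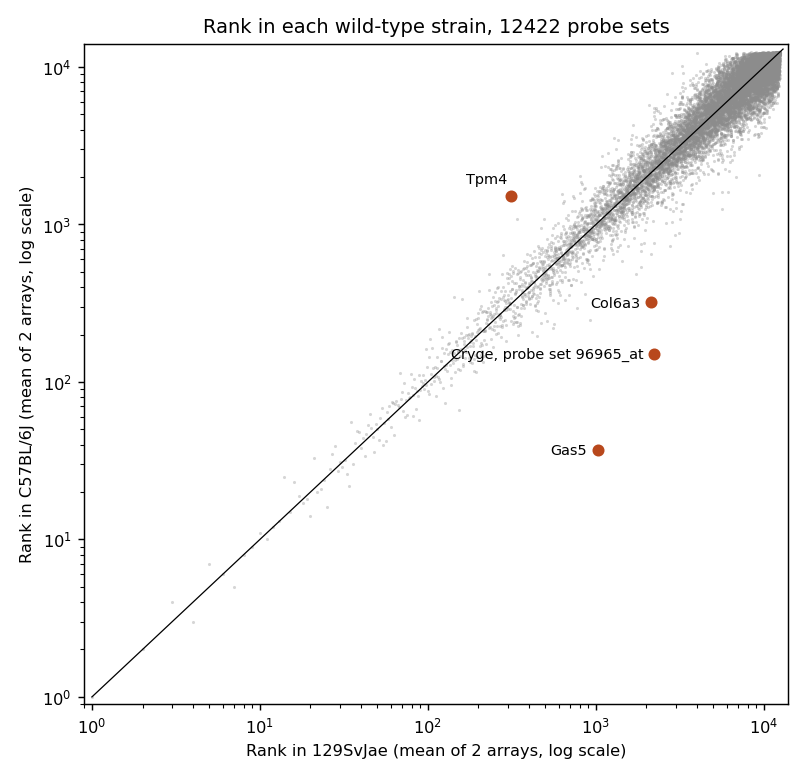
Rank in the mean of the 2 C57BL/6J arrays (vertical, log scale) against rank in the mean of the 2 129SvJae arrays (horizontal, log scale) for 12422 probe sets, with the line of equal ranks. Grey points are probe sets, and the red points Gas5, Tpm4, Col6a3 and the Cryge probe set 96965_at lie apart from the line.

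Probe sets of 1 gene often differed widely in rank. Of 8251 genes, 2073 had more than 1 probe set. Their probe sets spanned a median of 3324 ranks, and 1349 of these genes (65.1%) had probe sets in different signal ranges. For the 140 of these genes whose brightest probe set was in the top 500, the median span was 3943.5 ranks, 30 had another probe set under 50 and 61 had one outside the top 5000. Prdx2, a peroxiredoxin that breaks down hydrogen peroxide, had the widest span. Its brightest probe set read 6499 and 6758 on the 129SvJae arrays and 6038 and 4483 on the C57BL/6J arrays at rank 128, and its dimmest 8.90 and 3.40 on the 129SvJae arrays and 6.80 and 2.30 on the C57BL/6J arrays at rank 12375. Rps4x spanned ranks 69 to 11975, C1qb 239 to 12028, the cornified envelope gene Sprr1b 273 to 12091 and the antiproliferative gene Tob1 402 to 12349. A low rank of a gene with 1 probe set, such as Vim, is therefore a statement on that probe set.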

How the data were processed

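RNA of pooled 10-day lenses was labelled with biotin and hybridised to MG-U74Av2 chips, 2 arrays for each strain and genotype. The deposited values are intensities: MAS5 signals that the authors computed in Microarray Suite and scaled to a mean of 250, per the study's methods (the 2% trimmed mean of each array was 250.2 here). The tool is named MAS5, with no version, in the submitters' processing notes. Signals were used as deposited, with no further normalization, filter or log. Probe sets were ranked by the arithmetic mean of the 4 WT arrays. Replicates are the arrays the labels number 1 and 2. That these are separate pools is stated only as separate samples. The number of arrays limits the precision. Scanner run records were read for scan days and errors only.

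Genes were named from the platform annotation: 10833 probe sets had 1 symbol (8251 genes), 396 several and 1193 none. A gene stands at its brightest probe set. Named were the 40 brightest probe sets (in the plot), up to 4 leading genes of 32 lists and the lens list members under 50, the strain outliers, the 5 widest genes, the 3 probe sets on each side of 50 and lens genes of the study. Genes outside this rule, such as Actb, Vim, Hspb2, Tpm4, Lgals1, F2r and Ppp1r15a, were chosen after their values were seen. The ranking, the lists and the motifs were chosen with earlier results of these data known. Promoters are the first RefSeq start listed per gene (GRCm38.p6). Python 3.11.15, pandas 2.3.3, numpy 2.4.6 and scipy 1.17.1 were used. The ranking code was run on simulated data with less noise than these arrays and no shift between replicates or strains. That run checks the code and cannot show how steady these ranks are.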

Additional observations from a re-analysis of the deposited data

How the results depend on the processing

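Under 5 other summaries (geometric mean, median, quantile normalization, median centring and a trimmed mean of 250), 98 to 100 of the top 100 probe sets and 9 or 10 of the top 10 were kept. Leaving out 1 array kept 96 to 98, and put 3502 to 3905 probe sets under 50, 151 to 155 at 5000 or more, 88% to 91% of the top 100 in both strains and 32.9% to 34.4% of the signal in the top 100, with 11 crystallin and 13 or 14 ribosomal protein probe sets there. With 1 value per gene, 1836 were under 50, 102 at 5000 or more, and the top 100 held 36.0% of the signal. Near background taken as under 25 gave 1549 probe sets and under 100 gave 6125. Over the 4 KO arrays the top 100 held 31.1% of the signal. Without probe sets of any suffix, an alternative chosen after seeing the data, 98 were at 5000 or more and 6 crystallin probe sets were in the top 100. The other 82 of these 90 values stayed within 1.5 times, or within the spread between arrays for the share of signal. Of the 32 list medians, 1 moved by more than its spread between arrays under the geometric mean and none under quantile normalization. No paired analysis was possible because the ranking rests on no test. Low signals limit the ranking: 35.3% of probe sets crossed the line of 50 between arrays.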

Other observations

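The same ranking over the 4 α3Cx46 KO arrays, with no contrast tested, shared 10 of the top 10, 95 of the top 100 and 476 of the top 500 with that of the WT arrays, and Spearman's rho between the means over 12422 probe sets was 0.958. The knocked-out gene itself, Gja3, was the 1 probe set in the top 500 of the WT arrays and outside the top 1000 of the KO arrays, or the other way round: its mean was 2432 at rank 331 in WT and 471 at rank 1905 in KO. The 5 probe sets of the WT top 100 missing from the KO top 100 were Plk3 (rank 93 in WT and 154 in KO), Col4a1 (94 and 114), Gas5 (83 and 102) and 2 that name no single gene.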
